A study of Mus musculus with 31 samples.

Results

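WT clone 28 and WT clone 29 are 2 single-cell clones of one genotype, and their total mRNA was compared to measure how far such clones differ and in which genes. The members are the 6 total mRNA libraries that the labels give to these clones, 3 per clone with the replicate numbers 1 to 3, of 31 libraries in all (17 of total mRNA and 14 of polysomal RNA). Clone 28 was compared with clone 29 within each number, and every log2 difference below is clone 28 minus clone 29. The direction was read again in the polysomal RNA of the same clones, which had 2 libraries of clone 28 (numbers 2 and 3) and 3 of clone 29. Both clones are Ba/F3 cells, a mouse lymphoid line that grows on interleukin 3, in which endogenous Rpl10 had been lowered by an shRNA and human RPL10 of WT sequence was expressed from a retrovirus. The remaining clones, WT clone 36 and the R98S clones 11, 13 and 35, carry the same knockdown and differ in the RPL10 cDNA or the colony. Each line is 1 clone picked for strong knockdown, and the study's own sample sheet calls libraries of a clone technical replicates, so p-values measure the spread between libraries and n is 1 clone on each side.

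A clone grown from one cell keeps whatever that cell carried, such as the insertion sites of its viruses, gains or losses of chromosomes, and genes that were silent or active when the cell was picked. Ba/F3 cells are described as pro-B cells, and lines of this kind often hold transcripts of several blood lineages together. Clones of one genotype therefore show the variation on which any comparison between genotypes rests.

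The total mRNA libraries had 9338671 to 17827021 reads in clone 28 and 14870485 to 17492928 in clone 29, and the polysomal libraries 15099877 to 20353757 and 14056291 to 17382334. Values are normalised read counts, that is, reads divided by a size factor of the library. Of the B-lineage markers, Cd79a, a chain of the B-cell receptor complex, lay between 785 and 942 in all 6 libraries, and the pan-leukocyte gene Ptprc between 3449 and 8607. Pax5, Ebf1, Blnk and Rag1 were at 0 in all 6, so defining markers of committed B cells were absent. Rpl10, the targeted gene, had values of 1366, 1543 and 943 in the libraries labelled clone 28 (numbers 1, 2 and 3) and of 5715, 1756 and 1249.5 in those labelled clone 29. Human RPL10 reads may be placed on the mouse gene, and 57.2% of stretches of 50 bases in the Rpl10 transcript are also found elsewhere among mouse transcripts, so its level does not check the knockdown. The log2 difference was -0.89 (SE 0.34, n = 3 pairs, limma adjusted p = 0.892) and, without number 1, -0.30 (SE 0.12, adjusted p = 0.255).

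In genes that are read in one clone and not in the other, the total mRNA library labelled clone 28 with number 1 went against its label, and that labelled clone 29 with number 1 followed its label in part. Such genes were chosen on the polysomal libraries alone, as genes with a value of at least 20 in every library of one clone and at most 10 reads in every library of the other. This gave 21 genes high in clone 28 and 11 high in clone 29. In total mRNA of numbers 2 and 3 the same limits were met by 10 of the 21 and 8 of the 11. Of those 10 genes, the library labelled clone 28 with number 1 had only 2 at a value of at least 20, and of the 8 genes that clone 28 should lack it had 6. The library labelled clone 29 with number 1 had 3 of the 10 genes it should lack at that level, with 6 of the 10 at no more than 10 reads, and 5 of the 8 it should have. Over all 32 genes, the library labelled clone 28 with number 1 correlated with the mean polysomal profile of clone 28 at r = -0.44, of clone 29 at 0.50 and with that of clone 36 at 0.83. For the libraries of numbers 2 and 3, r with the profile of their own clone was 0.91 and 0.86 in clone 28 and 0.90 and 0.92 in clone 29. For clone 36, whose profile is 1 polysomal library, it was 0.83 and 0.82. The library labelled clone 29 with number 1 had r of 0.09, 0.14 and 0.11 with clones 28, 29 and 36, and so resembled no one profile. These are descriptions over genes that were chosen to separate the clones. Over all genes whose mean reached 10, total mRNA libraries were correlated as well. The library labelled clone 28 with number 1 had r = 0.980 with clone 36 of number 3. With clone 36 of number 2 it had 0.943, and with clone 28 of numbers 2 and 3 it had 0.937 and 0.950. With the library labelled clone 29 with number 1 it had 0.977. The study itself left out a total mRNA library of clone 36 with number 1, for grouping with R98S samples in a principal component analysis. No library was relabelled, and results are given with all 3 pairs and without number 1. Leaving out number 1 was among the alternatives listed for the comparison, but its calls were moved into the main text after the values had been seen.

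**Figure D1:**
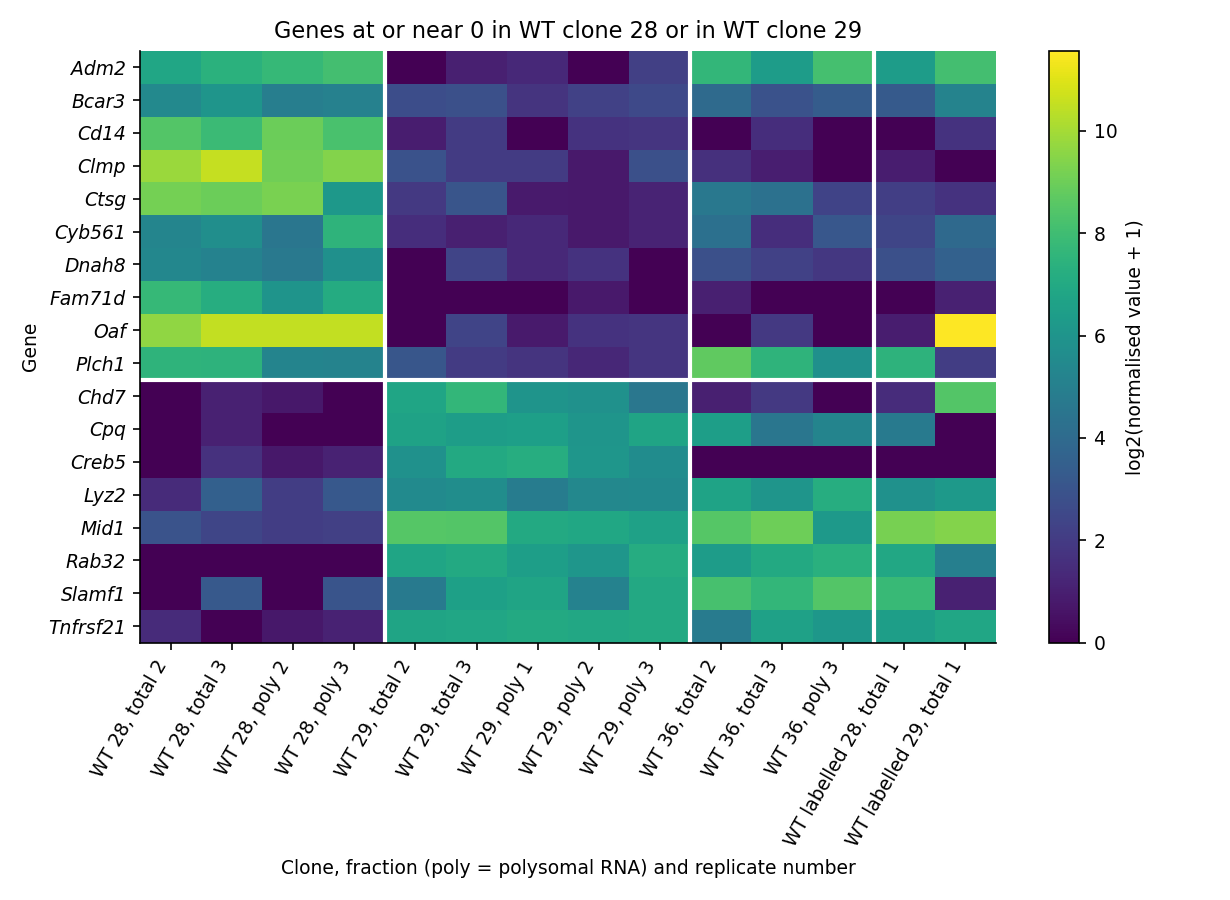
Log2(normalised value + 1), as colour, of the 18 genes that met the limits in total mRNA of numbers 2 and 3, in rows, over the 14 WT libraries, in columns; white lines separate clones 28, 29 and 36 and the total mRNA libraries with number 1. The 10 upper genes are bright in clone 28 and the 8 lower genes in clone 29, while the 2 right-hand columns follow neither block in full.

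Oaf, a gene for a secreted protein, showed the conflict. In the libraries labelled clone 28 it had 0.873, 799 and 1455 for numbers 1, 2 and 3. In those labelled clone 29 it had 3031, 0 and 4.12. In polysomal RNA it had 1455 and 1444 in clone 28 and 0.770, 2.20 and 2.40 in clone 29, and clone 36 had 0 and 2.83 in total mRNA. The low polysomal values of clone 29 were part of the choice of the gene. The total mRNA library labelled clone 29 with number 1 had a higher value than any of the other WT total mRNA libraries. Mid1, a ubiquitin ligase of microtubules, gave the reverse order in clone 28, with 587, 6.86 and 4.26 in the labelled libraries. It had 681, 365 and 355 in clone 29 and 360.3 and 519 in clone 36.

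The clones differed over the 3 labelled pairs in 3 genes (0.0273% of the 10984 genes whose mean over the libraries reached 10, limma adjusted p under 0.1), and 614 had an unadjusted p under 0.05. Chd7, which encodes a chromatin remodeler, was lower in clone 28, where it had 1.75, 0 and 1.07, against 351, 111 and 203 in clone 29. All 3 libraries labelled clone 28 lay at or below 2 reads and all 3 of clone 29 stood clear of them, and the R98S clones had 80.5 to 419. Clone 36 also lacked it, with 1.00 and 2.83, so the value at number 1 does not tell clone 28 from clone 36. The log2 difference was -6.81 (SE 0.37, adjusted p = 0.00562). Against a floor of 3 reads per library, the mean of numbers 2 and 3 in clone 29 was at least 30.5-fold higher. Chd7 lies at chr4:8690406-8867659 on GRCm38.

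Plch1, a phospholipase C, was higher in clone 28, with 175, 182 and 176 against 3.29, 7.41 and 3.09. The groups did not overlap, and clone 36 was high as well (429 and 185). Here too the value at number 1 does not tell clone 28 from clone 36. Its log2 difference was 5.08 (SE 0.34, adjusted p = 0.00720). Cd200r4, a receptor of the CD200R family on myeloid cells, was lower in clone 28. It had 131, 125 and 381 against 554, 453 and 1687, a log2 difference of -2.02 (SE 0.13, adjusted p = 0.00720). Within the numbers the difference was -2.07, -1.85 and -2.14, and in number 3 both clones had higher levels. Without the pairing by number Cd200r4 was not called (adjusted p = 0.9999), while Chd7 and Plch1 were. None of the 3 was called without number 3 (limma adjusted p = 0.397 for each; 368 genes had an unadjusted p under 0.05). Over the alternatives of the 3-pair comparison the adjusted p of Cd200r4 ran from 1.86e-22 with DESeq2 to the value without pairing, and Plch1 was also lost with all 17 total mRNA libraries in the fit (adjusted p = 0.122). The 3 libraries of each clone did not overlap in 345 genes (3.14%), a description that does not say how many genes differ.

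Without number 1, the differences of the remaining pairs went together. Over 10984 genes the differences of number 2 and number 3 correlated at r = 0.62, whereas those of number 1 correlated with number 2 at -0.18 and with number 3 at -0.20. These pairs share no library, genes are not independent replicates, and the values are descriptions. With numbers 2 and 3 alone 742 genes were called (6.76%), 452 higher (4.12%) and 290 lower (2.64%) in clone 28 (1695 at an unadjusted p below 0.05). Among called genes the median absolute log2 difference was 0.70, against 0.14 for all tested genes, and 153 called genes were more than 2-fold higher and 74 more than 2-fold lower. Of the 742 genes, 270 had the same sign in number 1, and over all tested genes 45.8% did.

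The count of 742 rests on 1 residual degree of freedom and on the spread that limma borrows across genes. It was 254 with DESeq2, 156 without a variance trend, 19 without the pairing and 928 with edgeR. When the other clones of numbers 2 and 3 entered the fit (12 libraries), 41 genes were called (0.373%), all among the 742, and 37 of the 37 that were also tested in polysomal RNA had the same sign there. The 2 libraries of one clone did not overlap with the 2 of the other in 3045 genes (27.7%), and with so few libraries this count is no measure of how many genes differ.

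**Figure D2:**
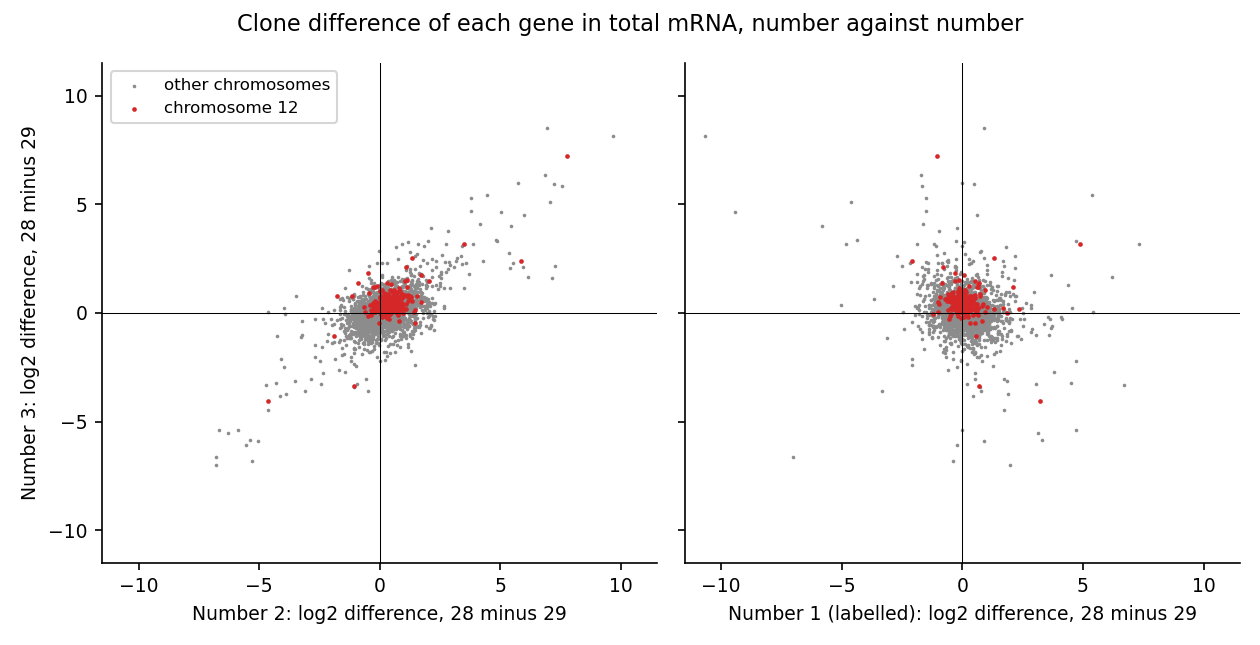
Log2 difference of each of 10984 genes, clone 28 minus clone 29, in total mRNA of number 3 (vertical) against number 2 (left) and number 1 (right, libraries as labelled); red points are genes on chromosome 12. Large differences lie along the diagonal for numbers 2 and 3 (r = 0.62) and do not for number 1 (r = -0.20).

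Most genes differed little between the clones. The median absolute log2 difference between clones 28 and 29 was 0.21 in number 1 as labelled, 0.20 in number 2 and 0.16 in number 3. Between numbers 2 and 3 of the same clone it was 0.31 in clone 28 and 0.24 in clone 29, which includes the difference between numbers. Across these numbers, clone 28 of number 2 differed from clone 29 of number 3 by 0.32. Clone 28 of number 3 differed from clone 29 of number 2 by 0.28. Clones 28 and 36 differed by 0.25 to 0.33 within a number, clones 29 and 36 by 0.29 to 0.34, and pairs of R98S clones by 0.20 to 0.33. In a single fit of all 17 total mRNA libraries 2 genes were called between clones 28 and 29, 2 between 28 and 36 and 49 between 29 and 36, against 363, 172 and 198 for the R98S clones 11 and 13, 11 and 35, and 13 and 35. Without the number 1 libraries labelled WT, the counts between WT clones were 54, 97 and 86. With number 1 left out for every clone, they were 40, 66 and 29 between WT clones and 45, 47 and 13 between R98S clones, so the counts of WT and R98S pairs overlapped. Counts for clone 36 rest on 2 libraries, and these comparisons share clones.

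Genes with the largest differences were taken by a rule applied to numbers 2 and 3, namely the 12 called genes per direction with the largest log2 difference among those whose mean reached 100 and whose clones did not overlap in total mRNA or in polysomal RNA of these numbers. The values of these genes are thus a description of the extremes, and their direction in polysomal RNA of numbers 2 and 3 was part of the choice. Of the 24 genes 22 were also called by DESeq2 and 10 in the fit of 12 libraries. All 24 also kept their order against the polysomal library of clone 29 with number 1, which the rule did not use. The labelled libraries of number 1 gave the same sign for 7 of the 24.

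Among the 12 genes higher in clone 28, the highest differences belonged to genes at or near 0 in clone 29. Clmp, an adhesion molecule of tight junctions, had 921 and 1487 in clone 28 (numbers 2 and 3) against 6.48 and 3.09 in clone 29. It had at most 3.01 in the R98S libraries of total mRNA and 2.01 and 0.943 in clone 36. The library labelled clone 28 with number 1 had 0.873. The log2 difference was 7.73 (SE 0.32, adjusted p = 5.92e-10; with 12 libraries, 0.00308) and 7.45 in polysomal RNA. Oaf differed by 8.90 (SE 0.36, adjusted p = 5.66e-10; with 12 libraries, 0.00584).

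A second set of these genes encodes proteins of granules and of myeloid cells. Ctsg, the neutrophil protease cathepsin G, had 567 and 495 in clone 28 against 2.78 and 7.20 in clone 29. Cd14, a receptor for lipopolysaccharide on monocytes, had 355 and 237 against 0.926 and 3.09, and 0 and 1.89 in clone 36. Ms4a3, a membrane protein of granulocyte precursors, had 3087 and 2670.2 against 295 and 315 (log2 difference 3.23, SE 0.13, adjusted p = 5.66e-10; with 12 libraries, 0.0263). In number 1 Ms4a3 had 871 in the library labelled clone 28 and 886 in that labelled clone 29, a log2 difference of -0.02. Epx and Prg2, a peroxidase and a basic protein of eosinophil granules, were far higher in number 2 (533 and 468 in clone 28) than in number 3 (39.4 and 43.7). With 12 libraries Epx and Prg2 were not called (adjusted p = 0.9998 for both), nor was Ctsg (0.528), while Cd14 was (0.00985).

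Gzmb, Slfn4, S100a6 and Il10ra were also among the 12 genes higher in clone 28. Gzmb, a cytotoxic granule protease, had 855 and 4175 against 25.01 and 166. The library labelled clone 29 with number 1 had 3094 of it and that labelled clone 28 had 3.49, and its mean log2 difference over 3 pairs was 0.09 (SE 2.59). Slfn4, an interferon-induced Schlafen gene, had 1836 and 2422 against 13.0 and 69.0 (log2 difference 6.08, SE 0.30, adjusted p = 6.53e-09; with 12 libraries, 0.000125). S100a6, a calcium-binding protein, had 1557 and 2189.6 against 35.2 and 136. Il10ra, the receptor chain for interleukin 10, had 2475 and 1384 against 139 and 81.3. Of these genes Slfn4 alone was called with 12 libraries.

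Among the 12 genes lower in clone 28, Mid1 showed the largest difference, -5.81 (SE 0.31, adjusted p = 1.28e-08; with 12 libraries, 2.41e-05). Of its transcript, 25.1% of 50-base windows occur in other genes and 17.9% of the exonic bases overlap another gene. Angptl2, a secreted angiopoietin-like protein, had 6.86 and 10.7 in clone 28 against 196 and 258 in clone 29 (log2 difference -4.56, SE 0.31, adjusted p = 2.58e-07; with 12 libraries, 0.0214). Tes, a protein of focal adhesions, had 141 and 130.0 against 1030.2 and 1066, and 309.5 to 969 in the R98S clones. It differed by -2.95 (SE 0.15, adjusted p = 6.78e-09; with 12 libraries, 0.00881), and both clone 28 libraries lay below every R98S and clone 36 library of total mRNA. In the libraries labelled number 1 the order of Tes was the reverse, with 547 for clone 28 and 162 for clone 29.

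The lower genes included cell-surface proteins. Cd55, which protects cells from complement, had 154 and 72.5 against 425 and 479 (log2 difference -2.08, SE 0.23; with 12 libraries, adjusted p = 0.0865). Tie1, an endothelial receptor that blood progenitors also express, had 471 and 681 against 1405 and 2095 (-1.60, SE 0.12; with 12 libraries, adjusted p = 0.0627). Cpa3, a mast cell carboxypeptidase, had 48.0 and 35.2 against 71.3 and 297 and was not called with 12 libraries or DESeq2. Prune2 had 235 and 308 against 547 and 1416, but its mean over 3 pairs had the other sign (0.43, SE 1.18), and the labelled libraries of number 1 had 944 and 35.1. Lrrc16a, Tubb2a, Mllt3 and Rnf150 complete the set with Cd200r4, at log2 differences of -2.35 to -1.36.

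The sequence around the start site is shown for genes read in one clone and not in the other. Of the 18 genes that met the limits in total mRNA 12 had a RefSeq promoter (250 bases before to 50 after the start, GRCm38.p6). These held 1 to 31 CpG dinucleotides with a median of 10.5, against a median of 21 over 8145 tested genes and of 7 over all 27025 listed promoters. The promoters of 3 genes are shown with each CpG in capitals, namely of Plch1, called over all 3 labelled pairs, of Oaf, with the largest difference in numbers 2 and 3, and of Rab32, a small GTPase of vesicle transport.
Plch1 promoter, chr3:63899413-63899712, minus strand: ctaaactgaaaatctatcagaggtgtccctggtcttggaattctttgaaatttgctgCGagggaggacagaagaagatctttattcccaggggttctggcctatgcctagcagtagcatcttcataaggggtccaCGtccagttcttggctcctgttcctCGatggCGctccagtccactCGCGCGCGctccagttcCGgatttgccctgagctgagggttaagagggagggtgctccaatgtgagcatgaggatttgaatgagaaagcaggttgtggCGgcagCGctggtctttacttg
Oaf promoter, chr9:43239767-43240066, minus strand: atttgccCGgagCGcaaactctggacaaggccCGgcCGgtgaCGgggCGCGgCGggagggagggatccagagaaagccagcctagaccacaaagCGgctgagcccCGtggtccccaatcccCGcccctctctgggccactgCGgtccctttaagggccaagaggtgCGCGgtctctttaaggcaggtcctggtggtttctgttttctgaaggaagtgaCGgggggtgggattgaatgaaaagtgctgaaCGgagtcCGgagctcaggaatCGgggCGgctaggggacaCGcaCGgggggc
Rab32 promoter, chr10:10558158-10558457, minus strand: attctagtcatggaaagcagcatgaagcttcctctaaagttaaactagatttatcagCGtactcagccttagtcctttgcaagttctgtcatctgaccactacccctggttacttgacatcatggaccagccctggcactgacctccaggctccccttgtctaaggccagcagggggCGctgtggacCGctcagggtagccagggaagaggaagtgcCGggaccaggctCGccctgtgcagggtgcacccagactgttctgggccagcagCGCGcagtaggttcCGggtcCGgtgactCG
The CG letters occur 11 times for Plch1, 21 times for Oaf and 10 times for Rab32, and at least as many are found in 41.9%, 25.01% and 43.9% of all listed promoters. These counts are a description of the windows, and the libraries hold no measurement of methylation.

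Rab32 was a gene missing in clone 28. It had 0 and 0 in total mRNA of numbers 2 and 3 and 0 and 0 in polysomal RNA, against 109 and 129 in total mRNA of clone 29 and 87.8, 66.6 and 144 in its polysomal RNA. Every R98S library of total mRNA had at least 56.6, and clone 36 had 83.3 and 129. The mean of numbers 2 and 3 in clone 29 was at least 23.1-fold above the floor of 3 reads per library (log2 difference -6.90, SE 0.64, adjusted p = 8.22e-06; with 12 libraries, 4.38e-05). The library labelled clone 28 with number 1 had 123. Tnfrsf21, death receptor 6, had 1.71 and 0 in clone 28 against 106 and 113 in clone 29, and Creb5, a transcription factor, 0 and 2.13 against 57.4 and 129. Creb5 had 0 and 0 in clone 36 and at most 5.31 in the R98S clones, and the library labelled clone 29 with number 1 had 0. Fam71d was high in clone 28, with 216 and 146 there, 0 and 0 in clone 29, 1.00 and 0 in clone 36 and at most 2.23 in the R98S clones.

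Lists of genes for cell types and pathways were then counted in numbers 2 and 3, where the median log2 difference over all tested genes was -0.01. Of all tested genes 4.12% were called higher and 2.64% lower in total mRNA, and 4.55% and 5.14% in polysomal RNA. With 12 libraries no member was called in any list other than the granulocyte and monocyte list (2 genes) and the replication and mitosis list (1 gene). Of 9 tested granulocyte and monocyte genes 6 were called higher and 1 lower in clone 28 (median 0.74), and of 11 tested in polysomal RNA 7 were higher and 1 lower (median 1.62). Besides Ctsg, Cd14 and Ms4a3 the higher ones were Mpo and Prtn3, granule enzymes, and Cebpe, a transcription factor of late granulocyte maturation. Cebpe had 960.0 and 934 against 579.9 and 551 (log2 difference 0.74, SE 0.13, adjusted p = 0.00293). Lyz2, lysozyme of macrophages, was the member that was lower, with 1.71 and 10.7 against 45.4 and 49.4. The list as a whole summed to 10129.7 and 9729 in clone 28 and 4903 and 5595 in clone 29, and to 8606 and 8895 in clone 36. With 12 libraries 2 members were called and over 3 pairs none.

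Other lineage lists had calls in both directions or few calls. Of 11 mast cell and basophil genes 2 were higher (Mcpt8 and Ms4a2) and 3 lower (Cpa3, Mitf and Cd200r3), and of 14 erythroid and megakaryocyte genes 2 were higher and 3 lower (median -0.14). In polysomal RNA the latter list leaned the other way, with 6 of 16 higher and 2 lower (median 0.40). The higher erythroid genes were Klf1, a transcription factor of red cells, and Hba-a1, a globin, which were also called higher in polysomal RNA. Of 7 T and NK genes Nkg7 and Gzmb were higher, and of 7 B-lineage genes 5 were lower in both numbers and 1 higher (median -0.11), while the only one called was Cd79b, higher with 300 and 373 against 183 and 208 (log2 difference 0.78, SE 0.16, adjusted p = 0.0108). Cd79b was also higher in polysomal RNA, but it was not called with 12 libraries (adjusted p = 0.842) or with DESeq2 (0.180). None of the 3 tested genes of the fibroblast and endothelial list was called. Whether the lineage lists move through other cells in a culture was not tested.

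Genes of cholesterol synthesis and uptake were lower in clone 28. Of 24 tested genes 12 were called lower and none higher (2.64% of all tested genes were called lower), 21 were lower in both numbers (30.6% of all tested genes were), and the median log2 difference was -0.46. Hmgcs1, the synthase at the entry to the pathway, had 861 and 946 in clone 28 against 1704 and 1783 in clone 29 (-0.95, SE 0.12, adjusted p = 0.000215). Msmo1, a sterol demethylase, had 826 and 1110.3 against 1661 and 1823 (-0.86, SE 0.13, adjusted p = 0.000732). Dhcr7, which makes cholesterol in the last step, differed by -0.68 (SE 0.13, adjusted p = 0.00611). The summed level of the list was 28843 and 28779 in clone 28, 40208 and 38434 in clone 29 and 41269 and 43460.2 in clone 36. In polysomal RNA 4 of 24 were called lower (median -0.21, 13 lower in both numbers). Of all genes tested there 5.14% were called lower, and their median was 0.01. In the labelled libraries of number 1 only 5 of 24 were lower (median 0.16), and with 12 libraries none was called. In number 1 the medians of chromosomes other than 12 lay between -0.06 and 0.07.

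**Figure D3:**
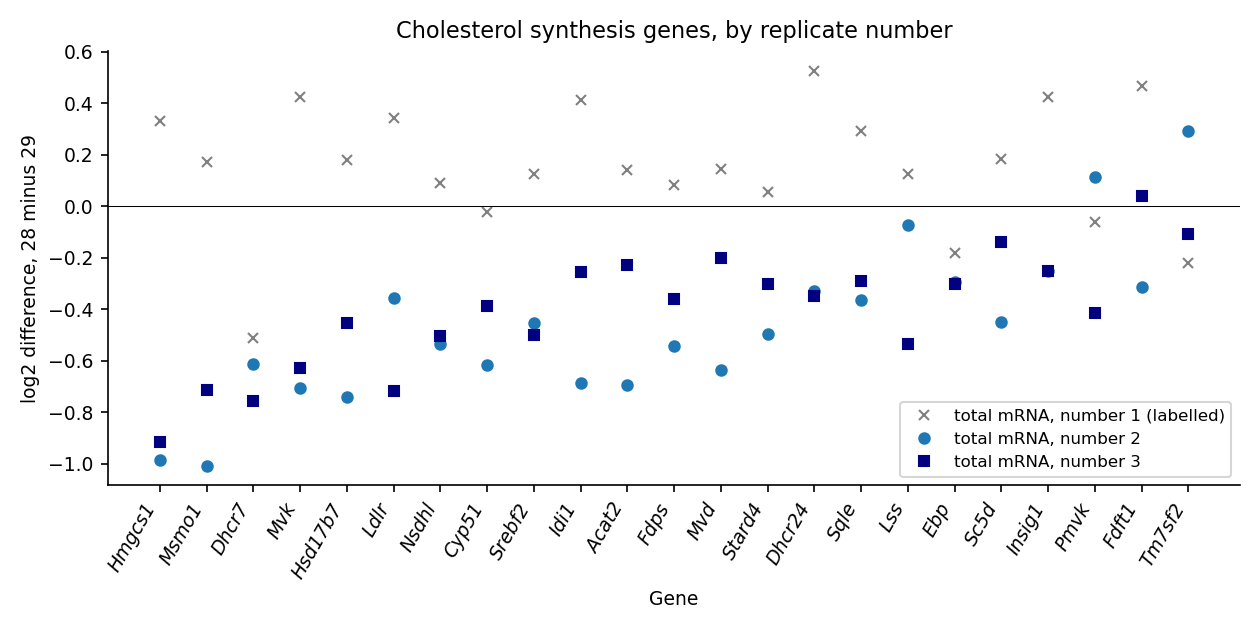
Log2 difference, clone 28 minus clone 29, of 23 of the 24 cholesterol synthesis and uptake genes in total mRNA of each number, ordered by the mean of numbers 2 and 3. Filled symbols lie below 0 for 20 genes in both numbers, while only 5 of the 23 crosses of number 1, as labelled, lie below 0.

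Signalling and adhesion genes are given beside the 6.76% of all tested genes that were called. Of 25 targets of JAK-STAT signalling, the route from cytokine receptors, 5 were lower (Osm, Lif, Bcl2l1, Spred1 and Xbp1) and Socs1, a feedback inhibitor, was higher, with 166 and 177 against 69.5 and 43.2. In polysomal RNA 5 of 24 JAK-STAT targets were higher (Socs1, Pim2, Ccnd3, Id1 and Gadd45g) and 2 lower (Lif and Spred1), with a median of 0.12, so that Socs1, Lif and Spred1 were called in the same direction in both fractions and Osm, Bcl2l1 and Xbp1 were called in total mRNA and not in polysomal RNA. Of 24 cytokine receptors Il10ra and Crlf2 were higher and Il4ra and Il9r lower. Of 17 chemokines and receptors 5 were higher (Ccl6, Ccl9, Cxcr4, S1pr4 and Ltb4r1), and of 30 adhesion genes 5 were higher, among them the integrins Itga4, Itga5 and Itga6, and Itgb3 was lower. Of 28 adhesion genes tested in polysomal RNA 2 were higher (Cd47 and Cd63) and 1 lower, and Itga4 had the other sign there (-0.52, against 0.61 in total mRNA). Calls in either direction in the other lists were the immediate early genes (4 of 25), the ATF4 response (3 of 34), glycolysis and hypoxia (3 of 34), p53 targets (3 of 28), the interferon response (2 of 26), antigen presentation (1 of 25), Hox and Meis genes (1 of 5), serine and glycine synthesis (1 of 5), replication and mitosis (1 of 47) and imprinted genes (0 of 18). Of the antigen presentation genes, 8 of 25 were called higher in polysomal RNA and none lower (median 0.56; 4.55% of all genes tested there were called higher), among them H2-K1 and H2-D1, class I molecules, and Tap1, a peptide transporter, none of which was called in total mRNA. H2-K1 differed in the polysomal libraries by 1.47 in number 2 and 0.44 in number 3, and the chromosome 17 window of 50 genes that starts at 33629090 had medians of 0.81 and 0.15. The differences of polysomal number 2 moved with GC content (rho 0.51), and the part of that in this list was not tested, nor was the difference between the fractions. Of 78 ribosomal protein genes other than Rpl10, 1 was called (Rpl23a). In total mRNA 19 of the 78 were higher in both numbers and 3 lower, against 28.4% and 30.6% of all tested genes. In polysomal RNA 6 of 78 were called higher and none lower (median 0.33). In the labelled libraries of number 1, however, 77 of the 78 were lower in the library labelled clone 28 (median -0.25). The medians of chromosomes other than 12 lay between -0.06 and 0.07 there.

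Genes of chromosome 12 were lower in clone 29 as a block. Over 366 tested genes the median difference was 0.36 in number 2 and 0.42 in number 3, a median 1.31-fold difference over both, and -0.01 in number 1 as labelled. The medians of the other chromosomes lay between -0.09 and 0.02 in number 2 and between -0.02 and 0.03 in number 3. Of the 366 genes 312 (85.2%) were higher in clone 28 in both numbers, against 26.3% of 10495 genes on other chromosomes. In polysomal RNA the medians of chromosome 12 were 0.23 and 0.32, but in number 2 other chromosomes reached 0.22. Chromosome 12 supplied 128 of the 452 genes called higher (35.0% of its tested genes, against 2.12% to 4.49% on any other chromosome) and 3 of those called lower. Most of these differences were small, since 114 of the 128 were less than 2-fold. The other chromosomes had 318 genes called higher and 285 called lower.

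**Figure D4:**
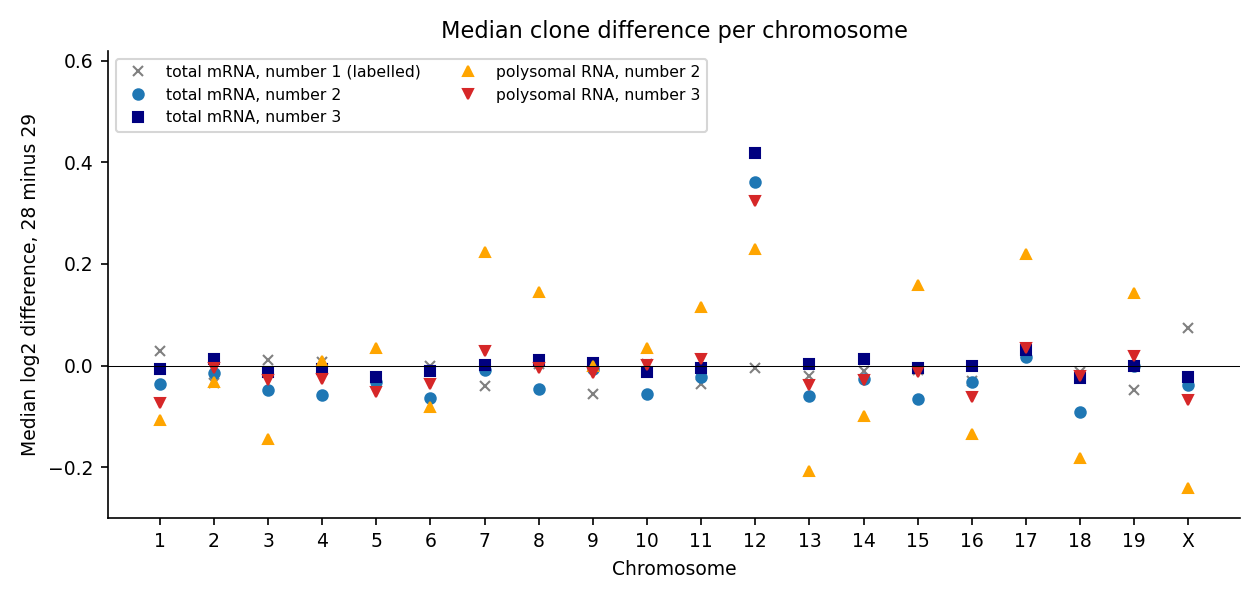
Median log2 difference, clone 28 minus clone 29, of the tested genes of each chromosome, by fraction and replicate number. Chromosome 12 reaches 0.36 and 0.42 in total mRNA of numbers 2 and 3, where all other chromosomes stay between -0.09 and 0.03; polysomal RNA of number 2 spreads from -0.24 to 0.23.

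The shift ran along the whole chromosome. In 7 consecutive windows of 50 to 66 genes, from chr12:3247428-25063152 to chr12:103407982-118301440, the median difference was 0.25 to 0.44 in number 2 and 0.34 to 0.51 in number 3. The 201 windows of the other chromosomes gave -0.20 to 0.15 and -0.13 to 0.10. In polysomal RNA chromosome 12 did not stand apart by window in number 2, with 0.11 to 0.43 against -0.51 to 0.81 elsewhere, and in number 3 it had 0.24 to 0.41 against -0.29 to 0.26. In number 1 as labelled, its windows gave -0.12 to 0.06 and other windows -0.40 to 0.34, with the extremes on chromosomes 19 and 4. Against the mean of all libraries of its fraction, chromosome 12 stood at -0.27 to -0.20 in the 5 libraries of clone 29 other than the total mRNA library with number 1. In total mRNA of numbers 2 and 3 it stood at 0.13 and 0.16 in clone 28, and in polysomal RNA at -0.07 and 0.20. The 3 libraries of clone 36 gave 0.12 to 0.20 and the 17 R98S libraries of both fractions -0.19 to 0.11, of which total mRNA of clone 13 with number 2 was lowest. The libraries labelled clones 28 and 29 with number 1 stood at 0.03 and 0.05, so the latter did not have the low level of the other clone 29 libraries. Copy number was not measured.

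**Figure D5:**
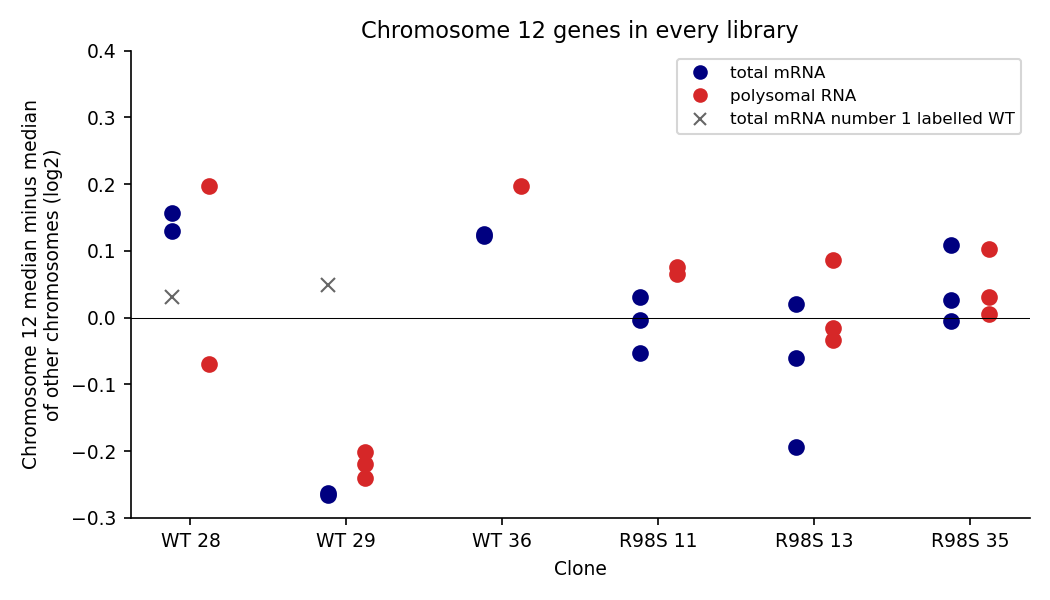
Median log2 level of chromosome 12 genes minus that of all other chromosomes, each gene relative to its mean over the libraries of its fraction, for every library by clone. The 5 libraries of clone 29 other than total mRNA number 1 lie at -0.27 to -0.20, below each of the other 26 libraries, whose lowest value is -0.19.

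The polysomal libraries gave the same direction for most genes called in total mRNA of numbers 2 and 3. Polysomal RNA holds transcripts bound by at least 2 ribosomes. The study calls these libraries matched to those of total mRNA, so the direction was read again in the same cultures and not in new ones. Of 704 called genes that were tested there, 614 (87.2%) had the same sign, against 58.5% of all 10449 genes tested in both, and of 189 with more than a 2-fold difference 183 did. In polysomal RNA itself 1023 of 10558 genes were called (9.69%), 480 higher (4.55%) and 543 lower (5.14%), with 277 in both fractions, which is 37.3% of the calls in total mRNA and 27.1% of those in polysomal RNA. Of the 277, 274 had the same sign. This count depended on the fit as well: 559 genes were called with all 14 polysomal libraries, 13 with 5 libraries and no pairing, and 1 without the pairing. In number 2 the polysomal differences moved with GC content (Spearman rho 0.51 over 10873 genes, against 0.18 in number 3 and between -0.03 and 0.04 in total mRNA), and its median absolute difference was 0.45 against 0.26 in number 3.

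Translational efficiency (TE), here the log2 polysomal minus the log2 total mRNA value of a culture, differed between the clones in 44 of 10436 genes (0.422%), 23 higher and 21 lower in clone 28, and 1024 had an unadjusted p under 0.05. Only numbers 2 and 3 had both fractions in both clones. S100a6 had polysomal values of 2138 and 10303 in clone 28 and 19.03 and 128 in clone 29, and its difference between the clones was larger there than in total mRNA (TE difference 1.81, SE 0.33, adjusted p = 0.0458). Chd7, with a TE difference of 1.87, had at most 1 read per library in clone 28 of these numbers, where the value rests on the pseudocount. With all 14 matched cultures in the fit no gene was called by limma, and 1277 had an unadjusted p under 0.05.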

How the data were processed

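Total mRNA and polysomal RNA of Ba/F3 clones were sequenced with a stranded poly(A) kit. According to the study's methods, the first base was trimmed, rRNA and tRNA reads were removed with Bowtie2, the rest were aligned to mm10 with TopHat (2.0.11, per the submitters' processing notes), and primary alignments of sufficient mapping quality on exons were counted. The use of strand and the annotation are not given in the sources used here, so overlapping and near-identical genes are uncertain. Each deposited value is a signal, namely a gene's reads scaled by the authors with a DESeq2 size factor of the library, set within each table. Tables were normalized separately.

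Groups came from the labels. Log2(value + 1) was fitted with limma 3.58.1 (R 4.3.3; lmFit, eBayes with trend) with the replicate number as a block, for genes whose mean reached 10, and p-values were two-sided and adjusted by Benjamini-Hochberg over all genes tested. A gene was called at an adjusted p under 0.1. Fold changes of low genes are understated. Deviations of same-numbered libraries from their clone means correlated at r = 0.42, 0.50 and 0.60 over genes, and the pairing by number was kept. Whole reads were recovered for 100% of values (within 0.001), and edgeR 4.0.16 and DESeq2 1.42.0 on them were alternatives. The scripts were tested on simulated data. Positions are GENCODE M21 (GRCm38), matched by symbol, and promoters are from RefSeq.

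Named genes are Rpl10, up to 12 called genes per direction whose mean reached 100 and whose clones did not overlap, up to 3 called members per list and up to 5 per direction in TE; the rule was repeated on numbers 2 and 3 after the values had been seen, and other genes were named for their detection in 1 clone. The comparison and the 22 gene lists were chosen with earlier results of these data known. A total mRNA library of clone 36 with number 1, which the study left out because it grouped with R98S samples, was not analysed here. A few genes among the markers, lists and named genes are not reported here, and 1 is left out of a plot.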

Additional observations from a re-analysis of the deposited data

Results flagged for a closer look

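A test of the polysomal-to-total ratio between the clones (limma, 2 cultures per clone) passed the threshold in 44 genes, of which the 5 per direction that the naming rule gives are listed. TE was higher in clone 28 for Cdkn2a (log2 difference 2.16, adjusted p = 0.0458) and S100a6 (1.81, 0.0458), and lower for Tcea1-ps1 (-2.31, 0.0635), Slc16a4 (-2.07, 0.0667), Gm6451 (-1.98, 0.0272) and Eda2r (-1.65, 0.0667). The fitted values of Itih4 (2.45, 0.00265), Fcgrt (2.13, 0.0272), Chd7 (1.87, 0.0535) and Kcnq1 (-1.94, 0.0296) rest on the pseudocount. In both total mRNA libraries used Itih4, Fcgrt and Chd7 had at most 3 reads in clone 28, and Kcnq1 had 0 in clone 29. The size of a TE difference in these genes, or its absence, therefore cannot be read from the fitted values. Of the windows of 50 bases in Gm6451 and Tcea1-ps1, 71.4% and 74.9% occur in other genes. No TE difference was called with 14 cultures (limma; 1277 genes at an unadjusted p under 0.05).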

How the results depend on the processing

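The 3 genes called over all pairs numbered 2 or 3 under the alternatives of scaling, filter, pseudocount, trend, GC correction, block and added WT or R98S clones. There were 7 with edgeR, 45 with DESeq2 and 0 to 742 when 1 number was left out (742 without number 1; at 0, without number 3, 368 had an unadjusted p under 0.05). Without the block 2 were called. For numbers 2 and 3, an analysis added after seeing the data, 742 became 19 without the replicate block, 156 with no variance trend, 254 with DESeq2, 41 with 12 libraries, 3 with all pairs, and 18 to 26 when 1 of the numbers was left out and other clones supplied the spread. Prune2 reversed with all pairs (0.43). In polysomal RNA 1023 became 1 without the replicate block, 675 at a mean of at least 50 and 533 with no trend. It became 13 with 5 libraries, 559 with 14 and 620 with edgeR. It became 38 to 3629 when 1 number was left out and the other clones supplied the spread. That step changed 2 choices at once and left 1 library of each compared clone. The counts therefore do not show the effect of the number alone. In TE 44 became 0 without the replicate block (54 at an unadjusted p under 0.05), with 14 cultures (1277) or 13 (751), and at a mean of at least 1 (744), 27 and 129 at pseudocounts of 0.5 and 5, 182 at a mean of at least 50, 135 with quantile normalization, 2 with no trend and 138 with a GC correction. It became 0 to 1786 when 1 number was left out and the other clones supplied the spread (129 at an unadjusted p under 0.05 where 0 were called, without number 2). Here too 2 choices changed at once and 1 culture of each compared clone remained, so the number alone cannot be judged.

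In the fit of 17 libraries, clones 28 and 29 gave 1 call at a mean of at least 50, 2 to 40 with 1 number left out, and 54 without the number 1 libraries labelled WT. Clones 28 and 36 gave 0 without the block (379 at an unadjusted p under 0.05), 0 to 66 with 1 number left out (958 at an unadjusted p under 0.05 where 0 were called, without number 2) and 97 without those libraries, and clones 29 and 36 gave 6 without the block, 2 to 45, and 86. R98S clones 11 and 13 gave 63 without the block and 8 to 97. Clones 11 and 35 gave 93 at a mean of at least 50, 68 without the block and 47 to 71, and clones 13 and 35 gave 123, 42 and 13 to 125. The cause of these changes was not tested. The mean of the chromosome 12 medians of the 3 numbers, 0.26, ranged from 0.18 to 0.39 with 1 number left out. Depth does not allow differences to be read in genes near 3 reads per library.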
